A study of Mus musculus with 12 samples.

Results

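Of 45477 cells sorted as live CD45.2+ cells from mouse melanomas, 506 carried the label CD8+ T cells in the authors' cell annotation, and all 506, in whichever cluster they lay, are described here. They came from 3 mice whose transferred T cells had been treated in culture with CAL-101 (idelalisib) and 3 control mice whose transferred T cells had been given vehicle. The 6 mice were Rag1-deficient (B6.129S7-Rag1tm1Mom/J), bore intradermal B16-F10 melanomas and had each received the same number of Pmel Thy1.1 CD8+ T cells by retro-orbital injection, so the transfer, the tumour line and the Rag1 deficiency were common to both groups. Per mouse the label held 105, 114 and 134 cells in CAL-101 mice, against 46, 36 and 71 cells in control mice. A further 32188 cells were labelled T cells and 167 CD4+ T cells; the cells labelled T cells serve as the comparison throughout and are called T-labelled, as the 506 are called CD8-labelled. How the labels were assigned is not stated in the labels or the files, so a measure on which the 2 labels differ may be one that the labelling used.

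CD8 is the co-receptor of cytotoxic T cells: it binds MHC class I beside the T-cell receptor and brings the kinase Lck to the receptor complex. It is built from an alpha chain (gene Cd8a) and a beta chain (gene Cd8b1), while CD3 epsilon (gene Cd3e) belongs to the signalling part of the receptor itself. Pmel cells carry a rearranged transgenic receptor against the melanocyte protein gp100, and CD4, the co-receptor for MHC class II, marks the other main T-cell lineage. Mice without RAG1 make no mature T or B cells of their own. CAL-101 inhibits the PI3K delta isoform, which acts downstream of antigen and cytokine receptors in lymphocytes.

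Surface proteins were read as DNA tags on antibodies, and the 4 antibodies that bear on the label are identified by the barcodes below, written in capitals because the whole run is the code that was counted.
CD8a: TACCCGTAATAGCGT
CD8b: TTCCCTCTATGGAGC
CD4: AACAAGACCCTTGAG
CD90.2: CCGATCAGCCGTTTA
CD90.2 is the Thy1.2 form carried by the host strain, whereas the transferred cells were Thy1.1.

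Each of the 6 libraries held 6152 to 9147 cells and 75716841 to 97933109 RNA UMIs. The CD8-labelled cells contributed 194679, 150625 and 228404 RNA UMIs in CAL-101 mice, against 57943, 56330 and 77342 in control mice. Of all barcodes, 249 occurred in more than 1 library, and 9 CD8-labelled cells carried one. One CD8-labelled cell of CAL-101 mouse 3 held 1322 haemoglobin UMIs among 1638, and 2 CD8-labelled cells had over 20000 tags. Pairs of libraries within a group differed by more than counting noise over the genes of the CD8-labelled cells, with chi-square values of 1.98 to 3.13 per degree of freedom.

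The CD8-labelled cells lay mostly in a single cluster of the authors' clustering. Cluster 6 held 327 of the 506 (64.6%), cluster 1 held 123 (24.3%) and cluster 4 held 29 (5.73%), with the remaining cells spread over clusters 2, 3, 5, 9, 10 and 12. T-labelled cells were spread differently: 4.01% lay in cluster 6, 23.4% in cluster 1, 20.03% in cluster 2, 18.5% in cluster 3, 13.7% in cluster 4 and 12.2% in cluster 5. Per mouse, cluster 6 took 54.3%, 65.8% and 63.4% of CD8-labelled cells in CAL-101 mice, against 60.9%, 77.8% and 76.1% in control mice. CD8-labelled cells made up 15.4% of cluster 6, 1.56% of cluster 1 and 0.0464% of cluster 2. Of the 7 CD8-labelled cells in cluster 12, 6 came from CAL-101 mouse 2.

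**Figure D1:**
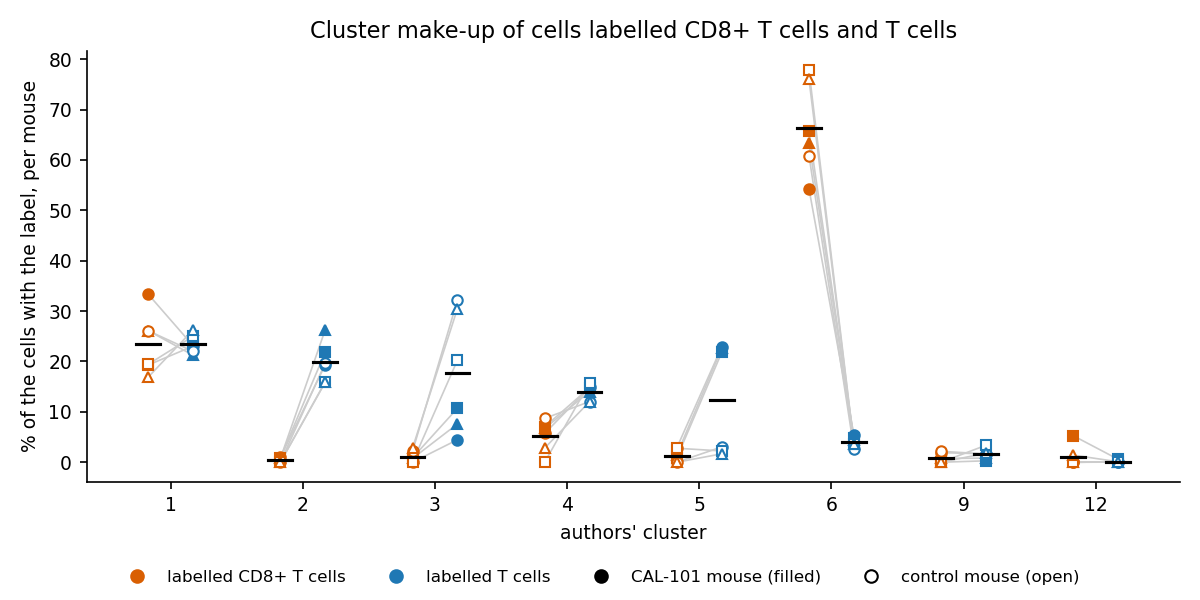
Percentage of the CD8-labelled (left of each pair) and T-labelled cells (right) of each mouse that lay in each of 8 clusters; filled symbols are CAL-101 mice, open symbols control mice, shapes mark the mouse number within a group, and bars are means over 6 mice. CD8-labelled cells reach 54.3% to 77.8% in cluster 6, while T-labelled cells are spread over clusters 1 to 5.

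CD8-labelled cells held far less RNA than T-labelled cells of the same mouse. Their median RNA UMIs per cell were 1187, 851 and 1227.5 in CAL-101 mice and 1072, 972 and 805 in control mice. T-labelled cells had medians of 8994, 10178.5 and 10151.5 UMIs in CAL-101 mice and 10743.5, 7866.5 and 8130 in control mice. The values of the 2 labels did not overlap, and the log2 ratio of CD8-labelled over T-labelled averaged -3.20 ± 0.25 (SD, n = 6 mice). A 2-sided exact sign-flip permutation test over the 6 mice gave p = 0.0312, the smallest it can give, and 0.0382 after adjustment over 11 measures. Only 5 CD8-labelled cells lay above the T-labelled median of their own mouse. Genes detected per cell were a median of 383 in CD8-labelled cells and 3000 in T-labelled cells. With every cell reduced to 500 UMIs, which left out no cell of either label, the expected number of genes per cell was still lower in CD8-labelled cells, at 273 ± 26.6 against 375 ± 2.79 (mean ± SD of mouse medians, n = 6), and lower in 6 of 6 mice.

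Mitochondrially encoded RNA, a usual measure of cell quality, took a larger part of the CD8-labelled cells. Its median share of UMIs was 24.4%, 24.3% and 31.3% in CD8-labelled cells of CAL-101 mice and 38.4%, 31.6% and 31.6% in those of control mice. In T-labelled cells it was between 3.68% and 5.07% in the 6 mice. The difference averaged 26.0 ± 5.63 percentage points (SD, n = 6; exact sign-flip permutation adjusted p = 0.0382). At most 20% mitochondrial and at least 1000 UMIs were found in 106 of 506 CD8-labelled cells and in 27868 of 32188 T-labelled cells.

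The gap in depth was smaller between cells of the same cluster, though CD8-labelled cells were the lower ones in 6 of 6 mice in both clusters that could be examined. In cluster 6 the median UMIs averaged 797 ± 90.25 in CD8-labelled cells and 931 ± 48.2 in T-labelled cells (SD, n = 6). In cluster 1 they averaged 1942 ± 323 and 2888 ± 263. The mitochondrial share was higher in CD8-labelled cells in 6 of 6 mice in each cluster, by 9.94 ± 5.004 points in cluster 6 and by 4.06 ± 2.28 points in cluster 1. The exact sign-flip p was 0.0312 for each of these comparisons and 0.115 after adjustment over the 11 measures, so none passed the threshold. With T-labelled cells weighted to the CD8-labelled cells' own cluster make-up, the log2 ratio of UMIs was -0.41 ± 0.13 (exact permutation adjusted p = 0.0688).

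**Figure D2:**
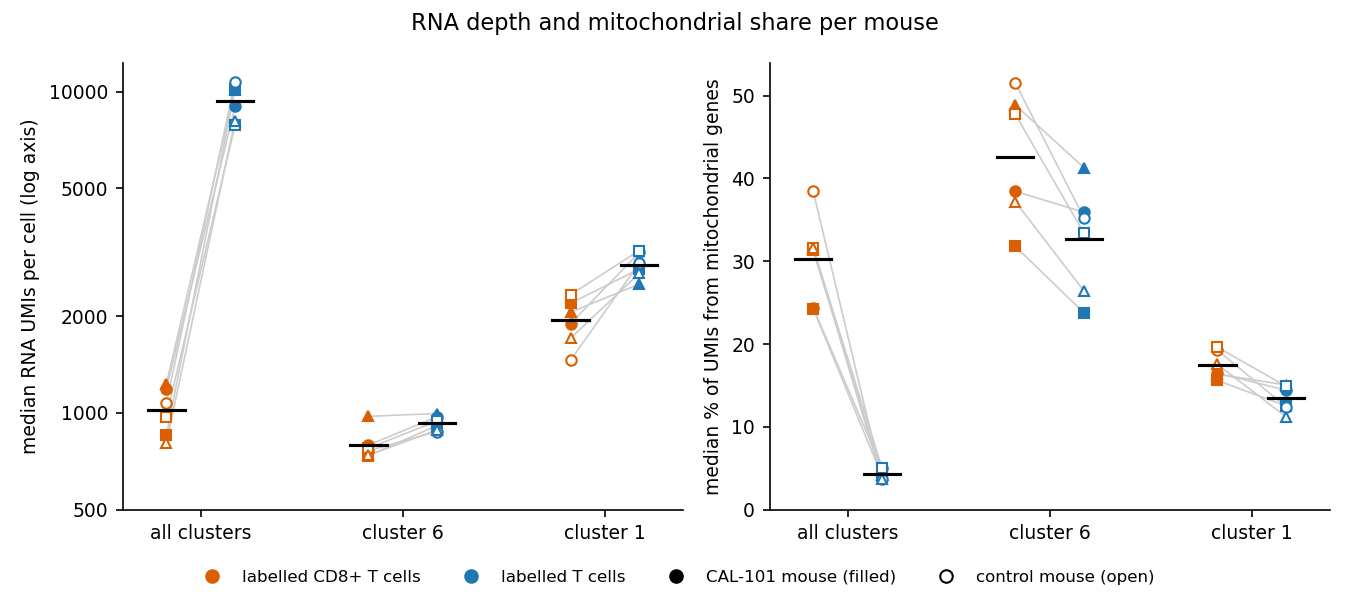
Median RNA UMIs per cell on a log axis (left panel) and median percentage of UMIs from mitochondrial genes (right panel) in CD8-labelled and T-labelled cells of each mouse, joined by lines, over all clusters and within clusters 6 and 1. Across all clusters CD8-labelled medians lie at 805 to 1227.5 UMIs and T-labelled medians at 7866.5 to 10743.5, and the pairs come close in cluster 6.

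The 3 RNA markers of the label were present in part of the cells. A Cd8a UMI was found in 203 of 506 CD8-labelled cells (40.1%), a Cd8b1 UMI in 21.1%, a Cd3e UMI in 24.7% and a Trac UMI, the alpha-chain constant gene of the receptor, in 24.7%. In T-labelled cells, with a median of 9470 UMIs against 1021, the shares were 75.4% for Cd8a, 71.5% for Cd8b1, 75.03% for Cd3e and 70.2% for Trac. Cells labelled NK cells, with a median of 6694 UMIs, had a Cd8a UMI in 14.6%, and neutrophils, with a median of 3175.5 UMIs, in 13.3%. Cells labelled CD4+ T cells, at a median of 1078 UMIs, had one in 11.98%. The Cd8a share in CD8-labelled cells was above that of these 3 labels, but the label may rest on the same counts.

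At an equal depth of 500 UMIs, Cd8a was expected in 20.6% of CD8-labelled cells, 15.9% of T-labelled cells, 4.62% of CD4-labelled cells, 1.75% of NK-labelled cells and 2.52% of neutrophils. Per mouse the expected share was 15.7%, 28.8% and 19.5% in CD8-labelled cells of CAL-101 mice and 20.9%, 18.3% and 17.6% in those of control mice. It was 17.7%, 18.7% and 17.7% in T-labelled cells of CAL-101 mice and 14.1%, 13.7% and 13.4% in those of control mice. CD8-labelled cells were higher in 5 of 6 mice, CAL-101 mouse 1 being the exception. The size of the difference changed with the depth and with the cells kept: at 1000 UMIs, which kept 263 CD8-labelled cells, the shares were 28.9% and 28.6%, and at 1600 UMIs, which kept 142, they were 44.6% and 40.9%, with CD8-labelled cells higher in 3 of 6 mice at either depth. Cd8b1 and Cd3e were no more frequent in CD8-labelled cells at 500 UMIs, with 10.4% against 12.9% for Cd8b1 and 11.4% against 15.8% for Cd3e.

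Within cluster 6, where depth was nearly matched, Cd8a was found more often in CD8-labelled cells. Without any reduction a Cd8a UMI was present in 107 of 327 CD8-labelled cells (32.7%), against 20.9% of 1290 T-labelled cells, 6.52% of 92 CD4-labelled cells and 13.8% of 406 NK-labelled cells of that cluster. The share was 24.6%, 38.7% and 35.3% in CD8-labelled cells of CAL-101 mice and 39.3%, 28.6% and 27.8% in those of control mice. Every one of the 6 mice had a lower share in its T-labelled cells, which lay between 13.9% and 23.0%. At 500 UMIs the shares were 22.5% and 11.5%, again higher in CD8-labelled cells in 6 of 6 mice. Cd8b1 was at 15.9% in CD8-labelled and 16.6% in T-labelled cells of the cluster, Cd3e at 16.2% and 18.1%, and Trac at 14.98% and 17.8%, all without reduction. These RNA shares are given with no test, because the label may rest on the same counts. In cluster 1 the Cd8a shares at 500 UMIs were 16.5% and 14.6%, higher in CD8-labelled cells in 4 of 6 mice.

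Trbv14, the variable segment of the transgenic Pmel receptor's beta chain, was also found more often in CD8-labelled than in T-labelled cells of cluster 6. A Trbv14 UMI was found in 15.6% of CD8-labelled cells, 4.96% of T-labelled cells and 1.97% of NK-labelled cells there. CD4-labelled cells of the cluster, which had the lowest Cd8a share of these labels, had a Trbv14 UMI in 15.2%. At 500 UMIs over all clusters it was expected in 9.91% of CD8-labelled and 5.63% of T-labelled cells, and CD8-labelled cells were higher in 6 of 6 mice. Cd4 RNA was found in 1 of the 506 CD8-labelled cells (0.198%) and in 0.385% of T-labelled cells. In CD4-labelled cells a Cd4 UMI was found in 1.80%. With 1 such cell among the 506, a difference in Cd4 RNA was not detectable at this depth.

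The CD8 proteins were lower on CD8-labelled than on T-labelled cells as a share of all tags. CD8a took 5.12%, 3.26% and 3.32% of tags on CD8-labelled cells of CAL-101 mice and 4.38%, 2.97% and 2.98% on those of control mice. On T-labelled cells it took 7.70%, 6.58% and 6.39% in CAL-101 mice and 6.31%, 6.98% and 5.79% in control mice. The 2 labels did not overlap, and the difference averaged -2.96 ± 0.704 points (SD, n = 6; exact sign-flip permutation adjusted p = 0.0382). CD8b followed, with 2.75% ± 0.519 on CD8-labelled and 5.41% ± 0.256 on T-labelled cells and the same adjusted p from the exact permutation test. CD8-labelled cells also carried fewer tags, with mouse medians averaging 1201 ± 310 per cell against 1916 ± 339.

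Between cells of the same cluster the differences in CD8a share were smaller. The sign-flip test could say little there, because even measures at its smallest p adjusted to 0.115 in both clusters. In cluster 1, CD8a took 6.85% ± 1.03 of tags on CD8-labelled cells and 6.68% ± 0.756 on T-labelled cells, a difference of 0.165 ± 0.503 points (SD, n = 6; exact permutation adjusted p = 0.786). In cluster 6 it took 2.55% ± 0.483 and 3.02% ± 0.694, a difference of -0.468 ± 0.543 points (exact permutation adjusted p = 0.196), while edgeR's test on the tag counts called CD8a lower on CD8-labelled cells of that cluster (log2 -0.44, adjusted p = 0.0238). With T-labelled cells weighted to the CD8-labelled cluster make-up, the difference was -0.498 ± 0.564 points (exact permutation adjusted p = 0.153). In cluster 6, 1 other antibody, CD117, took 10.6% of the pooled tags on T-labelled cells, against 1.95% on CD8-labelled cells. This lowers the share left for every other antibody on those T-labelled cells. Its part in the cluster 6 and weighted differences was not tested. On cells of either label the mean CD8a share was higher in cluster 1 than in cluster 6.

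**Figure D3:**
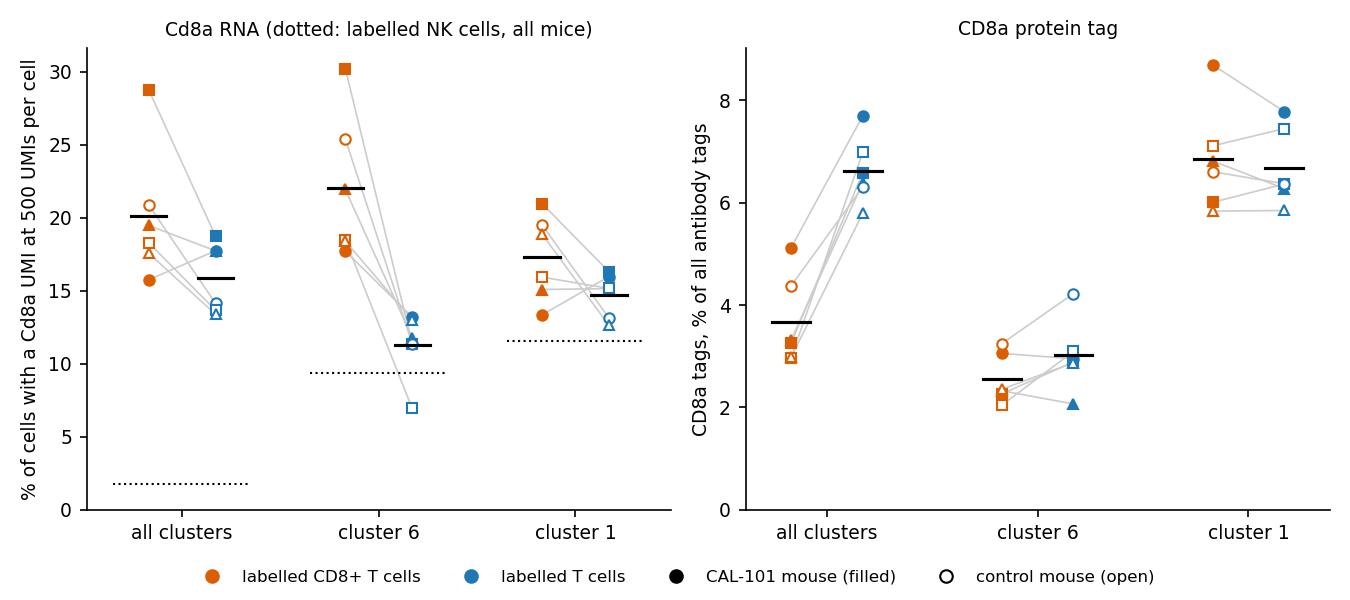
Left, percentage of CD8-labelled and T-labelled cells of each mouse expected to hold a Cd8a UMI at 500 UMIs per cell, with cells labelled NK cells as a dotted line; right, CD8a tags as a percentage of all tags. In cluster 6 the RNA share is 22.5% in CD8-labelled and 11.5% in T-labelled cells over all mice, while the protein tag averages 2.55% and 3.02%.

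A cut on each cell's own tags gave a similar picture. A CD8a share above the 95th percentile of the cluster 0 NK cells of the same mouse was found in 403 of 506 CD8-labelled cells (79.6%), in 92.6% of T-labelled cells and in 135 of 167 CD4-labelled cells (80.8%). In cluster 1 the figures were 97.6% and 97.9%. In cluster 6 they were 72.5% and 74.8%, but NK-labelled cells of cluster 6 also passed in 61.6%, so the cut separated little there. Combining both readouts over the 506 cells, 171 had a Cd8a UMI and a CD8a tag share above the cut, 32 had the UMI alone, 232 the tag alone and 71 (14.03%) neither. Of those 71 cells, 61 lay in cluster 6.

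The direction of other T-cell tags depended on how tags were scaled. As a share of tags, CD4 was higher on CD8-labelled cells in 6 of 6 mice, at 0.113% ± 0.0261 against 0.0582% ± 0.00404 (exact permutation adjusted p = 0.0382). CD3 was also higher in 6 of 6, at 0.769% ± 0.188 against 0.495% ± 0.0843. The 7 isotype control antibodies, which bind no mouse target, were higher as well, at 0.711% ± 0.118 against 0.342% ± 0.0303 (exact permutation adjusted p = 0.0382). Scaled to those isotype controls, the CD4 log2 difference was -0.10 (adjusted p = 0.503) and that of CD3 was -0.42 (adjusted p = 0.000101). CD8a and CD8b stayed lower under each scaling, at -1.92 and -2.04 relative to the isotype controls.

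Across the panel, edgeR's paired quasi-likelihood test called 84 of 102 antibodies (82.4%), 45 higher (44.1%) and 39 lower (38.2%) on CD8-labelled cells. With isotype scaling it called 75 (73.5%), 59 of them lower (57.8%), and the median over antibodies moved to -0.36 on the log2 scale, compared with 0.03 with TMM scaling. Relative to the median antibody, CD62L, a lymph node homing receptor, was lowest, with a log2 difference of -2.08 ± 0.24 (SE, adjusted p = 0.000175). The adhesion and memory protein CD44 (-1.49 ± 0.15), the integrin alpha L chain CD11a (-1.42 ± 0.15), the costimulators CD27 (-1.67 ± 0.13) and GITR (CD357, -1.37 ± 0.15), and the adhesion ligand CD54 (-1.42 ± 0.16) were each lower as well, with adjusted p values of at most 0.000171. CD20, a B-cell protein, had the largest positive difference, 1.60 ± 0.09, and it took 2.30% of tags on CD8-labelled cells against 0.486% on T-labelled cells. PD-1 (CD279) and TIM-3 (CD366) were called lower with TMM, at -0.52 and -0.32, although their share of tags was higher in 6 of 6 mice.

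Within single clusters most of these calls were not made. In cluster 6, 17 of 102 antibodies (16.7%) passed, 14 of them lower (13.7%) on CD8-labelled cells, among them CD8a (-0.44, adjusted p = 0.0238), CD8b (-0.46, adjusted p = 0.0140), CD44 (-0.48) and CD357 (-0.44). CD20 did not pass there, at 0.28 (adjusted p = 0.183). In cluster 1, where 123 CD8-labelled cells were available, no antibody passed the edgeR test (0 of 102, with 8 at an unadjusted p under 0.05), and CD8a was at 0.01 (adjusted p = 0.987).

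Few UMIs of genes that mark other cell types were counted in the CD8-labelled cells, but at their low depth the levels were not uniformly below those of T-labelled cells. Levels are in CPM, a gene's counts scaled to the summed UMIs of the cells, added over each list. Of the basophil and mast cell genes 6 of 6 were at 0, and of the B-cell genes 5 of 8, with 4 UMIs in all and a level of up to 8.76 CPM against up to 7.11 in T-labelled cells. Of the monocyte and macrophage genes 7 of 11 were at 0, with 10 UMIs in all; the level was 10.3 to 19.9 CPM in CAL-101 mice and 0 to 17.8 in control mice, against 9.93 to 12.3 and 7.40 to 9.02 in T-labelled cells. Neutrophil genes gave 34 UMIs in 26 cells with 5 of 9 at 0, at 6.64 to 51.4 CPM in CAL-101 mice and 35.5 to 173 in control mice, against 31.3 to 41.9 and 26.6 to 98.1 in T-labelled cells. Dendritic cell genes, which include MHC class II, gave 57 UMIs in 36 cells with 6 of 11 at 0, at 46.5 to 118 CPM in CAL-101 mice and 17.3 to 160 in control mice, against 60.3 to 105 and 74.2 to 116 in T-labelled cells. NK genes were detected from 12 of 12 members, with 119 UMIs in 97 of the 506 cells, but at a lower summed level than in T-labelled cells, 109 to 180 CPM in CAL-101 mice and 155 to 259 in control mice, against 231 to 428 and 400 to 598 in T-labelled cells. Of 7 gamma-delta T genes measured, Trdc and 3 others were at 0, and the list gave 59 UMIs in 33 cells. Its level was 70.1 to 113 CPM in CAL-101 mice and 0 to 71.0 in control mice. In T-labelled cells it was 120 to 137 and 54.6 to 59.6. Melanoma genes gave 40 UMIs in 13 cells, with Sox10 at 0, and reached 153 CPM in 1 CAL-101 mouse and 142 in 1 control mouse, whereas T-labelled cells stayed between 3.84 and 8.44. The part of such RNA in the results below was not tested. For CD4 T-cell genes the summed level was 272 to 616 CPM in CAL-101 mice and 328 to 497 in control mice, with Ccr4 at 0, and 425 to 544 in T-labelled cells of the 6 mice. Cd8a, Cd8b1 and Cd3e together gave 684 UMIs in 305 of the 506 cells.

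Summed per mouse, the RNA of CD8-labelled cells differed from that of T-labelled cells first in its mitochondrial part, and this comparison is a description with no test. Of 3532 genes with at least 50 CPM in either label, 31 (0.878%) were higher in CD8-labelled cells in 6 of 6 mice, and 13 of those were the 13 mitochondrially encoded genes. The same table had 1106 genes (31.3%) lower in 6 of 6 mice, with a median log2 ratio of -0.49. Leaving out mitochondrial genes and 3 genes that overlap ribosomal RNA moved the median to -0.08, and then 147 of 4007 genes (3.67%) were higher and 187 (4.67%) lower in 6 of 6 mice. The levels named next are with mitochondrial genes in the sums, and each direction was the same without them, except for AY036118, which the second scaling leaves out.

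Among nuclear genes, the largest positive ratios belonged to Lars2, the mitochondrial leucyl-tRNA synthetase, at 337 ± 106 CPM in CD8-labelled and 56.8 ± 5.49 in T-labelled cells (SD, n = 6), and to Cmss1, Camk1d, a calcium-dependent kinase, and Cdk8, a Mediator kinase. AY036118, one of the transcripts overlapping ribosomal RNA, was at 680 ± 215 against 160 ± 19.96. The activation factor Jun was at 173 ± 34.1 against 98.6 ± 17.7, Irf9, part of the interferon response, at 67.7 ± 25.1 against 38.7 ± 2.82, and Trbv14 at 224 ± 64.9 against 128 ± 13.7. Also among the 12 largest were AC149090.1, Fnbp4 and Pxk. Each of these was higher in 6 of 6 mice with mitochondrial genes included.

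The largest negative ratios included several receptors of effector lymphocytes. Ccr2, a chemokine receptor, was at 6.88 ± 7.91 CPM in CD8-labelled cells and 61.1 ± 22.6 in T-labelled cells, and Il12rb2, a chain of the interleukin-12 receptor, at 180 ± 84.8 against 670 ± 200. Il18rap, of the interleukin-18 receptor, was at 47.7 ± 22.6 against 166 ± 41.4. The NK-type receptor genes Klrc2 (14.8 ± 13.0 against 63.5 ± 7.21) and Klrc1 (40.1 ± 14.7 against 135 ± 17.7), and Tnfrsf18, the gene of GITR (87.0 ± 79.3 against 233 ± 72.1), were lower too. Rrm1, a ribonucleotide reductase subunit needed for DNA synthesis, was at 37.8 ± 28.5 against 116 ± 12.6. The rest of the 12 were Pik3ap1, Alyref, Serpina3g, Aqr and Ythdf2. Klrc1 and Klrc2 are close copies whose reads counting can split.

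By gene list, with mitochondrial and ribosomal RNA genes left out and all genes at a median log2 ratio of -0.08, glycolysis genes stood at -0.35, with 6 of 12 measured genes lower in 6 of 6 mice and 0 higher. Gapdh, a glycolytic enzyme, was at 1443 ± 229 CPM in CD8-labelled cells and 2442 ± 344 in T-labelled cells on that scaling, and Ldha at 696 ± 184 against 982 ± 61.4. Effector and cytotoxic genes stood at -0.36, with 5 of 16 lower, among them Gzma. Proliferation genes stood at -0.28 with 1 of 15 lower, receptor-signal genes at -0.22 with 2 of 11 lower, and chemokine and cytokine genes at -0.26 with 0 of 8 in either direction. The T-cell receptor and co-receptor list stood at 0.00 with 0 of 16 in either direction, and the naive and memory list at 0.02 with 1 of 11 higher. Progenitor-exhausted genes stood at 0.18 with 0 of 9 in either direction and terminally exhausted genes at 0.03 with 1 of 9 higher. FOXO1-associated genes stood at 0.22 with 1 of 9 higher, interferon genes at -0.04 with 0 of 8 in either direction, and dissociation and stress genes at 0.15 with 1 of 10 higher and 1 lower. Of 4 NK genes measured at that level, 3 were lower in 6 of 6 mice.

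Inside cluster 6, 37 of 2301 genes (1.61%) were higher and 331 (14.4%) lower in CD8-labelled cells in 6 of 6 mice. The median log2 ratio of the 2301 genes was -0.42 with mitochondrial genes in the sums, so the counts lean to the lower side. They were not repeated without mitochondrial genes in this cluster. Trbv14 had the largest positive ratio, at 185 ± 42.1 CPM against 54.8 ± 13.7, and Cd8a was among the 12 largest, at 423 ± 106 against 236 ± 48.2. Il12rb2 was at 30.6 against 202 (means of 6 mice), Tbx21, the transcription factor T-bet, at 17.1 ± 21.3 against 104 ± 36.0, and Il18r1 at 31.6 ± 30.5 against 140 ± 37.9. Ccr2 was at 0 in the CD8-labelled cells of cluster 6 in each of the 6 mice, against 64.6 ± 24.4 in T-labelled cells. These levels rest on few UMIs: Il12rb2 was seen in 5 and Tbx21 in 4 of the 327 CD8-labelled cells.

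CAL-101 mice had a larger share of their T-cell labels given as CD8+ T cells. The share among cells with any of the 3 T-cell labels was 2.63%, 1.75% and 2.32% in CAL-101 mice, against 0.772%, 0.875% and 1.09% in control mice. The groups did not overlap, and the means were 2.23% ± 0.448 and 0.914% ± 0.165 (SD, n = 3 each). The Wilson 95% intervals, which cover counting error only, were 1.46% to 2.09% for the lowest CAL-101 mouse and 0.869% to 1.38% for the highest control mouse. The 2-sided exact permutation p was 0.1, the smallest that 3 against 3 mice allow, so the comparison could not pass 0.05. Of all sorted cells the share was 1.75% ± 0.199 in CAL-101 mice and 0.596% ± 0.161 in control mice.

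The higher share was present inside single clusters and within cells of better quality. In cluster 6, CD8-labelled cells were 20.1%, 18.8% and 24.0% of the T-cell labels in CAL-101 mice, against 14.4%, 14.8% and 18.7% in control mice, without overlap. In cluster 1 they were 3.72%, 1.47% and 2.83%, against 0.910%, 0.681% and 0.707%. Among cells with at most 20% mitochondrial and at least 1000 UMIs the share was 0.663% ± 0.257 in CAL-101 mice and 0.152% ± 0.00223 in control mice, resting on 29, 22 and 33 CD8-labelled cells, against 8, 5 and 9. Outside those limits it was 9.86% ± 0.203 and 6.37% ± 2.98, with the lowest CAL-101 mouse at 9.74% and the highest control mouse at 9.72%, almost level. Each of these gave an exact permutation p of 0.1. Cluster 6 itself took more of the T-cell labels in CAL-101 mice, 6.45% ± 0.556 against 4.10% ± 0.736, and the share labelled CD4+ T cells also moved, 0.757% ± 0.132 against 0.300% ± 0.114; their part in the result was not tested.

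**Figure D4:**
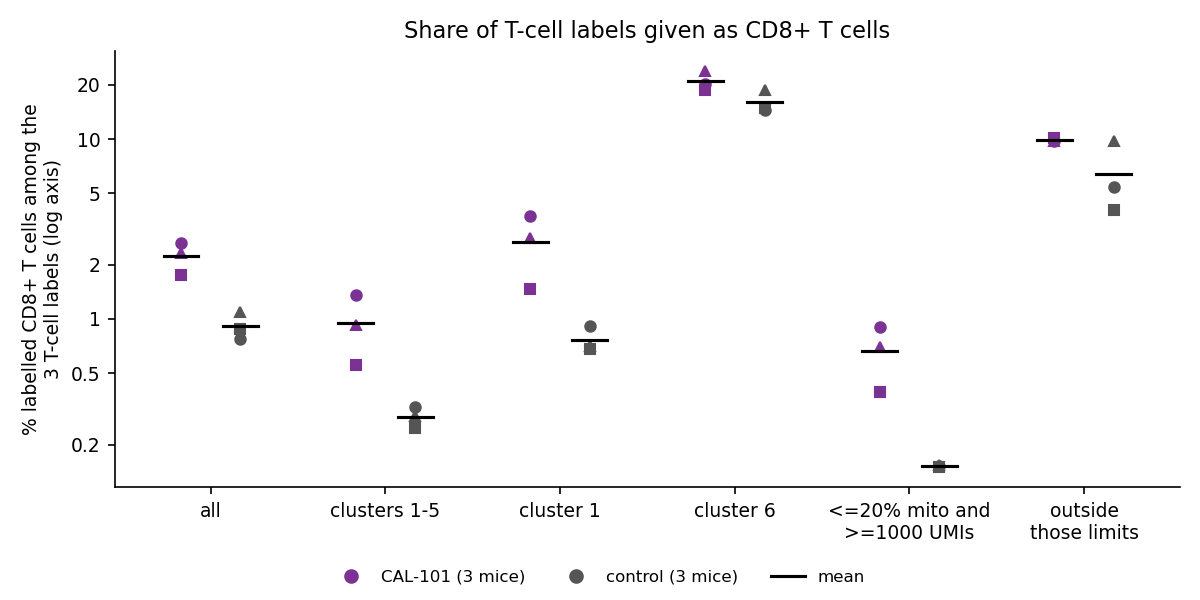
CD8-labelled cells as a percentage of all cells with a T-cell label (log axis), per mouse, with CAL-101 mice left and control mice right of each pair, over all cells, in sets of clusters and by cell quality. CAL-101 mice lie above control mice in the 6 settings shown, but the nearest mice are almost level in cluster 6 (18.8% and 18.7%) and outside the quality limits (9.74% and 9.72%). The largest ratio of means (4.37, from 0.663% and 0.152%) is among cells of at most 20% mitochondrial and at least 1000 UMIs.

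No difference in the cluster make-up of the CD8-labelled cells passed between the groups. Cluster 6 held 61.2% ± 6.08 of them in CAL-101 mice and 71.6% ± 9.30 in control mice (exact permutation p = 0.3), cluster 1 held 26.3% ± 7.02 and 20.8% ± 4.74 (exact p = 0.4), and all adjusted p values over 3 clusters were 0.4.

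In the RNA of the CD8-labelled cells, summed per mouse and tested with edgeR's quasi-likelihood test, 28 of 1639 genes (1.71%) passed, 7 higher (0.427%) and 21 lower (1.28%) in CAL-101 mice; the groups did not overlap for 312 of the 1639 (19%). The 7 that rose were Ikzf2, Tcf7, Phlpp1, Aff3, Skap1, Tox and Inpp4b. Ikzf2, the Helios transcription factor, was at 1079, 524 and 302 CPM in CAL-101 mice, against 121, 107 and 51.7 in control mice. The groups did not overlap, and the log2 change was 2.59 ± 0.41 (SE, adjusted p = 7.79e-06). Skap1, an adaptor of the receptor that activates integrins, was at 770, 770 and 674, against 242, 249 and 246, a narrow spread in both groups (1.39 ± 0.31, adjusted p = 0.00327). Tox, a factor of persistent antigen stimulation, was at 1212, 631 and 613, against 345, 373 and 168 (1.29 ± 0.32, adjusted p = 0.00964). Phlpp1, a phosphatase of the kinase AKT, changed by 1.91 ± 0.40, Aff3 by 1.56 ± 0.38 and Inpp4b, a phosphoinositide phosphatase, by 0.93 ± 0.24. Tox lost its call without CAL-101 mouse 1 (adjusted p = 0.326) or control mouse 3 (0.269), and Phlpp1 without the same mice (0.0507 and 0.0825). Aff3 and Inpp4b lost theirs without CAL-101 mouse 1 (0.0603 and 0.153), control mouse 1 (0.108 and 0.131) or control mouse 3 (0.176 and 0.153).

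Tcf7, the gene of TCF-1, a factor of naive and stem-like T cells, rose from a base of very few UMIs. It was counted 33, 14 and 26 times in CAL-101 mice, against 0, 2 and 0 times in control mice. The ratio of the summed rates was 12.2, with a 95% counting interval of 3.26 to 103, and edgeR's adjusted p was 0.00738. The call was lost without CAL-101 mouse 1 (adjusted p = 0.157), control mouse 1 (0.0991) or control mouse 3 (0.153). It was also lost with DESeq2 in place of edgeR and with the mouse number as a block.

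Of the 21 genes that fell, 5 were on the effector and cytotoxic list: Gzmf, Gzma, Gzmc, Gzmb and Prf1. Gzmf was at 25.7, 86.3 and 13.1 CPM in CAL-101 mice, against 500, 142 and 1616 in control mice (-4.54 ± 0.46, adjusted p = 4.27e-12). edgeR shares its estimate of spread across genes, so this p does not measure the wide spread of Gzmf among control mice alone. In T-labelled cells of the same mice its change was -3.17 ± 0.58 (edgeR adjusted p = 0.00867). Gzma was at 134, 39.8 and 65.7, against 639, 391 and 853 (-3.17 ± 0.35, adjusted p = 9.29e-11). Neither gene's groups overlapped. Granzymes are the proteases that killer cells deliver into targets, and perforin, the pore protein encoded by Prf1, moved the same way, at 46.2, 59.8 and 35.03 against 190, 124 and 207 (-2.12 ± 0.46, adjusted p = 0.00172; 0.114 without control mouse 3). Gzmc changed by -2.24 ± 0.33. Gzmb was at 154, 611 and 377, against 1174, 444 and 1513, with overlapping groups (-1.69 ± 0.32, adjusted p = 0.000247); without CAL-101 mouse 1 its change was -1.28 (adjusted p = 0.0985) and without control mouse 1 it was -1.58 (adjusted p = 0.0593). The granzymes are close relatives, and so are the Ifitm genes, so counting can split reads among members.

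The other genes that fell included Spp1, which encodes the secreted protein osteopontin (-2.56 ± 0.41), Myo10, an unconventional myosin (-2.69 ± 0.54), Ctla2a, a cathepsin inhibitor (-1.74 ± 0.32), and the interferon-induced membrane genes Ifitm1 (-2.12 ± 0.38), Ifitm2 (-1.98 ± 0.42) and Ifitm3 (-1.47 ± 0.33). Rgs1, a brake on chemokine receptor signalling, changed by -1.50 ± 0.35, Klrd1, the CD94 chain of NK-type receptors, by -1.18 ± 0.34, and the mitochondrial gene mt-Co1 by -0.95 ± 0.23. Without CAL-101 mouse 1 the adjusted p was 0.0507 for Ifitm1, 0.121 for Ifitm3 and 0.483 for Klrd1, without control mouse 1 it was 0.105 for Ifitm2 and 0.0593 for Rgs1, and without control mouse 3 it was 0.0635 for Rgs1. Klrd1 also lost its call without 3 other mice. Cobll1, Lgals3, Mt1, Actg1, Rbm3, Taco1 and Gm26917 completed the 21. Of the 26 called genes other than mt-Co1 and Gm26917, each kept its direction in every alternative under which it could be fitted, and 8 (Ikzf2, Skap1, Gzmf, Gzma, Gzmc, Spp1, Myo10 and Ctla2a) stayed called whichever mouse was left out. The count of called genes was 12 without CAL-101 mouse 1 and 13 without control mouse 3.

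**Figure D5:**
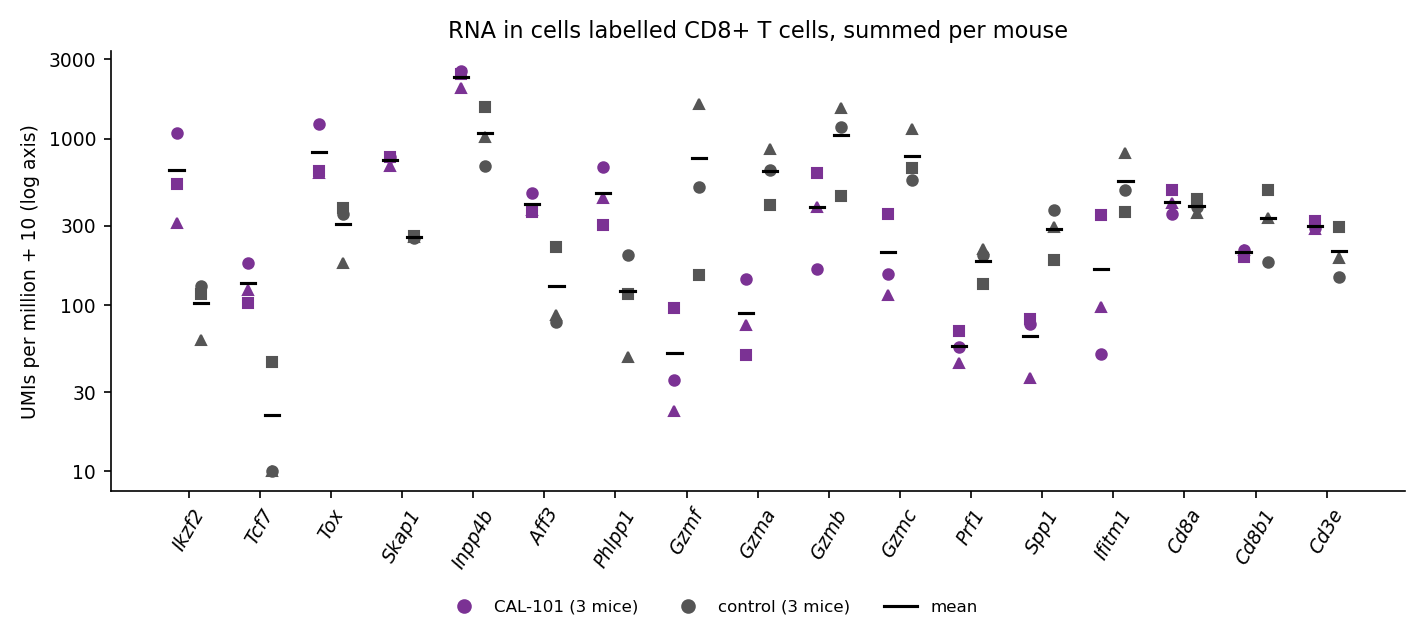
CPM plus 10, on a log axis, for named genes in the CD8-labelled cells of each mouse, CAL-101 left and control right of each pair, with means as bars. Ikzf2 to Phlpp1 lie higher in CAL-101 mice and Gzmf to Ifitm1 lower, with overlapping groups for Gzmb. Cd8a, Cd8b1 and Cd3e did not pass the test.

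The co-receptor and CD3 genes Cd8a, Cd8b1 and Cd3e did not pass. Cd8a was at 344, 485 and 398 CPM in CAL-101 mice, against 380, 426 and 349 in control mice, with a log2 change of -0.10 ± 0.31 (adjusted p = 0.929). Cd8b1 was at 205, 186 and 206, against 173, 479 and 323 (-0.88 ± 0.33, adjusted p = 0.202), and Cd3e at 283, 312 and 276, against 138, 284 and 181 (0.35 ± 0.34, adjusted p = 0.725). Trac, Trbc1, Trbc2, Thy1, Pdcd1 (the gene of PD-1) and Ifng, which encodes interferon gamma, lay between -0.53 and -0.00 and did not pass. Havcr2, Slamf6 and Cd4 were too low to enter the test.

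Over all 1639 genes, 21 fell (1.28%) and 7 rose (0.427%), with a median log2 change of 0.00. The lists were chosen with earlier results of these data known, so their counts are a description. Read by list, effector and cytotoxic genes had the most calls: 5 of 10 tested fell, 0 rose, and the median log2 change was -1.55. Of 4 chemokine and cytokine genes tested, Spp1 fell, with a median of -0.48. In the progenitor-exhausted list 2 of 5 genes rose (Ikzf2 and Tcf7, median 0.01), in the terminally exhausted list 1 of 5 (Tox, median -0.10), in the naive and memory list 1 of 8 (Tcf7, median 0.19) and in the FOXO1-associated list 1 of 6 (Tcf7, median 0.51). The receptor and co-receptor list had 1 of 15 genes higher (Skap1, median -0.02). Of the 13 mitochondrially encoded genes, mt-Co1 fell and 12 had a negative change, with a median of -0.53. No gene passed in the lists for receptor signals (7 tested, median -0.35), proliferation (7, 0.07), interferon (4, 0.22), glycolysis (9, -0.22), dissociation and stress (9, -0.11) or CD4 T cells (3, -0.37). No gene of the other cell-type lists was abundant enough to be tested.

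Among the CD8-labelled cells the median mitochondrial share was 24.4%, 24.3% and 31.3% in CAL-101 mice, against 38.4%, 31.6% and 31.6% in control mice, with the nearest mice close. Cells of over 20% mitochondrial were 55.2%, 59.6% and 67.9%, against 73.9%, 66.7% and 67.6%, with overlapping groups, and median UMIs overlapped too. The difference in quality between the groups, and its part in the gene result, was not tested. In the 167 cells of clusters 1 to 5 alone 5 genes were called, in cluster 6 alone 3, and in the 106 cells within the quality limits 2. With mitochondrial and ribosomal RNA genes left out of the sums, 31 were called.

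For the antibody tags of CD8-labelled cells, edgeR called 0 of 102 (0%) between CAL-101 and control mice, with 15 at an unadjusted p under 0.05 and 10 called by DESeq2. Ly108, the SLAM-family receptor encoded by Slamf6, came nearest, at 0.127%, 0.112% and 0.130% of tags in CAL-101 mice, against 0.0573%, 0.0701% and 0.0648% in control mice (log2 0.84 ± 0.13, adjusted p = 0.0558). GITR (CD357) was at 1.91%, 1.31% and 1.38%, against 4.45%, 3.65% and 3.10% (-1.43 ± 0.32, adjusted p = 0.0899). The ectoenzyme CD73 was at 0.399%, 0.301% and 0.207%, against 0.0873%, 0.148% and 0.131% (1.24 ± 0.28, adjusted p = 0.0899), and the integrin chain CD61 had a log2 difference of -1.22 ± 0.27 with the same adjusted p. These 4 were among 20 of 102 antibodies (19.6%) whose groups did not overlap. CD62L was at 1.38 ± 0.34 (adjusted p = 0.111). CD8a (0.01), CD8b (-0.12), CD4 (0.21), CD3 (0.34), TCR beta (0.11), PD-1 (0.07), TIM-3 (-0.31), CD127 (0.12), CD44 (-0.73) and CD90.2 (-2.59) did not pass either.

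No gene or antibody passed a test of whether the CAL-101 change differed between CD8-labelled and T-labelled cells, which came from the same mice. In T-labelled cells 410 of the 1639 genes (25%) were called. Of the 28 genes called in CD8-labelled cells, 24 were also called in the same direction in T-labelled cells. The log2 changes side by side were 2.59 in CD8-labelled and 1.19 in T-labelled cells for Ikzf2, 1.29 and 1.98 for Tox, -3.17 and -2.74 for Gzma, -4.54 and -3.17 for Gzmf, and -1.69 and -1.17 for Gzmb. The difference of the 2 effects, tested gene by gene with limma on the within-mouse log2 ratios of CD8-labelled over T-labelled cells, passed for 0 of 1639 genes (0%), with 114 at an unadjusted p under 0.05 and a smallest adjusted p of 0.471. For the antibodies the same test passed for 0 of 102, with 8 at an unadjusted p under 0.05 and a smallest adjusted p of 0.131.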

How the data were processed

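RNA and antibody tags were measured in the same cells by droplet sequencing (10x 3' v3.1) in 6 libraries, 1 mouse each. The deposited matrices hold UMI counts of 32285 genes and 102 antibodies, which per the file headers came out of Cell Ranger 7.1.0; the submitters' processing notes name the mm10 build and Seurat. Labels and clusters come from the authors' deposited cell annotation. All annotated cells were kept: no filter on cells, no doublet caller and no re-clustering was applied, and doublets were weighed only by counting cells of over 20000 tags.

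Counts were summed per mouse and label. CAL-101 and control mice were compared with edgeR 4.0.16 (quasi-likelihood, TMM, its filter on low counts, Benjamini-Hochberg threshold 0.05), and tags of the 2 labels by the same test with mouse as a block. Fold changes are CAL-101 over control or CD8-labelled over T-labelled. Effects were compared between labels with limma 3.58.1. Alternatives included DESeq2 1.42.0, RLE factors, thinned sums, single clusters, quality limits and leaving out each mouse. Depth measures and tag shares were compared over 64 sign patterns and shares over 20 assignments by exact permutation. The labels were described in CPM, with a pseudocount of 10, for genes of at least 50 CPM in either label. Detection at equal depth is the expected share when each cell is reduced to that number of UMIs. Scripts were tested on simulated data. Named genes were the called ones, label markers and members of the 23 lists. The members and lists were chosen with earlier results of these data known. Mice are separate samples per the labels. Gene symbols come from the files. Some genes are not reported here.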

Additional observations from a re-analysis of the deposited data

Results flagged for a closer look

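The CD90.2 tag on CD8-labelled cells of control mouse 2 stood apart from the other 5 mice: CD8-labelled minus T-labelled cells came to 1.42 percentage points there, with 1.87% of tags on CD8-labelled cells. Of 1524 CD90.2 tags on its 36 CD8-labelled cells, 1287 lay on 3 cells with 63.7% to 69.1% mitochondrial UMIs, and without those 3 the share was 0.367%. The gap to the nearest mouse was a larger part of the range than Dixon's critical value for 6 samples allows. About 1 in 20 such sets is flagged by chance, and 11 measures were examined.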

How the results depend on the processing

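The 28 genes called between CAL-101 and control mice became 12 with sums thinned to the smallest mouse total, 5 in clusters 1 to 5, 3 in cluster 6, 2 within the quality limits and 12 to 35 when 1 mouse was left out; 36 without a filter, 20 by DESeq2 and 26 with RLE factors. The 0 antibodies became 10 by DESeq2, 9 in clusters 1 to 5 and 0 to 2 without 1 mouse, and the 0 genes of the difference between labels 0 to 4. Same-numbered mice correlated at 0.159, 0.0132 and 0.0653, so the numbers were not taken as pairs; with a replicate block 22 genes and 5 antibodies were called. The 84 antibodies called between labels became 17 in cluster 6, 0 in cluster 1 and 21 in clusters 1 to 5. Log2 differences turned sign for CD20 (-0.11 in cluster 1, -0.0198 in clusters 1 to 5), CD24 (-0.38 in cluster 1), CD279 (0.0851 in cluster 1, 0.0407 in clusters 1 to 5), CD366 (0.0118 in cluster 1), CD73 (0.66 in cluster 1, 0.63 in clusters 1 to 5), CD8a (0.00799 in cluster 1), IgD (-0.0187 in clusters 1 to 5), Ly108 (0.0141 in cluster 6, 0.0785 in cluster 1), TCR beta (TCR.Bchain, 0.0891 in cluster 6) and CD4 (-0.10 with isotype scaling). The log2 difference in median UMIs was -0.41 weighted to the cluster make-up, -2.31 in clusters 1 to 5, -0.23 in cluster 6, -0.58 in cluster 1 and -3.26 to -3.13 without 1 mouse. In the same order, the CD8a tag difference was -0.498, -0.298, -0.468, 0.165 and -3.16 to -2.74 points, and that of CD4 0.0269, 0.0303, 0.0217, 0.00255 and 0.0488 to 0.0615. The CD3 tag difference was -0.0169 points in cluster 1. With 5 mice no p under 0.0625 is possible. The mean difference in Cd8a detection was 5.66 points at 1600 UMIs, 4.22 at 500, -0.0466 at 1000 and -35.7 with no thinning. The cause of these changes was not tested. Of 1020 values for 85 named results, 773 were counted as unchanged, 215 no longer passed, 14 newly passed, 15 turned sign and 3 moved. A turn of sign in which neither value passed the threshold was counted as unchanged and is not listed above. More than 15 values therefore turned sign, among them the TCR beta and CD90.2 tag shares in clusters 1 to 5. Control mice held 36 to 71 CD8-labelled cells, which limits what low genes can show.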
